A study of Mus musculus with 9 samples.

Results

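Mos, the kinase that starts the MAP kinase cascade of the maturing oocyte, and 5 kinase genes that act after it were followed in XX, XO, and XY mouse oocytes of the growth phase. The members were Mos, Map2k1 and Map2k2, which encode the MEK kinases, Mapk3, which encodes ERK1, and Rps6ka1 and Rps6ka2, which encode RSK kinases. They were taken by gene name, and all 6 were found among the 28051 genes of the normalized matrix. The question behind the 3 genotypes is how the number of X chromosomes and the presence of a Y alter the transcripts of a growing oocyte. Each of the 9 libraries, 3 per genotype, was made from a pool of 30 oocytes at 18 dpp, of which 10 measured 50–55 µm and 20 measured 55–60 µm across. XY females and their XX littermates were born to B6.YTIR fathers, which carry a Mus musculus domesticus Y chromosome on the C57BL/6J (B6) background, and B6 mothers. XO females were sired by males that carried the Paf mutation on the X chromosome and had been backcrossed to B6 from C3H/HeSnJ, so that for the XO pools the effects of the cross and of the genotype cannot be told apart. The single X chromosome of XO and XY oocytes was maternal. The labels do not say whether the pools of a genotype came from separate animals, and p-values therefore measure only the spread between pools.

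In vertebrate oocytes Mos is a MEK kinase that is translated from stored mRNA when meiosis resumes. Mos phosphorylates MEK1 and MEK2, which phosphorylate the ERK kinases, which in turn activate RSK. The cascade is best known for holding the ovulated egg at the second meiotic metaphase, as part of cytostatic factor, and mouse eggs without Mos activate on their own. The oocytes measured here were still growing, a stage at which such mRNAs are transcribed and stored.

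Depth was 2130145 to 3157338 gene UMIs per pool, where a UMI (unique molecular identifier) counts 1 captured 5′ end of a transcript once. ERCC spike-ins, synthetic RNAs added in equal amounts, made up 0.204 to 0.862% of all UMIs. Levels are given as the deposited normalized CPM, which are UMI counts scaled on the library and its spike-ins, and 1 UMI was worth 0.302 to 0.565 normalized CPM. Intervals on summed UMIs are exact Poisson 95% intervals and cover counting error only. All 12 oocyte marker genes were detected, and their summed level was 24001 to 28969 normalized CPM in XX, 9959 to 57732 in XO and 14847 to 27392 in XY oocytes. The 9 granulosa cell markers analysed summed to 47.97 to 66.7, 55.9 to 67.2 and 56.6 to 92.1 normalized CPM in the same order of genotypes. In a pool, a lower level of a transcript in every oocyte cannot be told apart from fewer oocytes that hold it.

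The stretches of coding sequence that carry the activating phosphorylation of MEK and ERK are shown because they are where this cascade passes its signal on, and because paralogs that are so alike must be told apart by the reads. They are from the Gencode transcripts of GRCm38, 5′ to 3′ on the coding strand. Capitals mark the 2 serine codons of MEK phosphorylated by Mos or RAF. In ERK they mark the threonine, glutamate and tyrosine codons, of which MEK phosphorylates the threonine and the tyrosine.
Map2k1, codons 213 to 227: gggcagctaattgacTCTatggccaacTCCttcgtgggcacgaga
Map2k2, codons 217 to 231: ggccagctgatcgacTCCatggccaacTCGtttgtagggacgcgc
Mapk3, codons 198 to 210: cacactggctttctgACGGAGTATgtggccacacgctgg
Over the whole aligned coding sequence, 79.1% of bases were identical between Map2k1 and Map2k2 and 75.3% between Rps6ka1 and Rps6ka2.

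Mos (ENSMUSG00000078365.5) is a gene of a single exon at chr4:3870657-3872105 on the minus strand, with a coding sequence of 1032 bases, and no annotated gene overlaps it. Its coding sequence begins as follows, with the start codon in capitals, and is shown because the whole transcript lies in 1 exon, the kind of exon in which UMIs were counted.
Mos, codons 1 to 16: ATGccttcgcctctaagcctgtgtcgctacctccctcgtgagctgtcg
Mos transcripts were few in every pool. XX oocytes held 7, 7 and 5 UMIs, XO oocytes 6, 12 and 11, and XY oocytes 1, 1 and 6. On the normalized scale the 3 XX pools were at 2.49, 2.45 and 1.52, the XO pools at 3.11, 6.20 and 6.21 and the XY pools at 0.465, 0.326 and 1.81. Every XO pool lay above every XX and XY pool, whereas XX and XY pools overlapped, since the third XY pool was above the third XX pool. On CPM of gene UMIs without spike-in scaling the first XO pool, at 2.602, fell below the first and second XX pools, at 2.81 and 2.86.

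The mean level of Mos was 5.17 ± 1.79 (SD, n = 3) normalized CPM in XO, 2.16 ± 0.55 (SD, n = 3) in XX and 0.867 ± 0.820 (SD, n = 3) in XY oocytes. The XO mean was 2.40-fold the XX mean and 5.97-fold the XY mean, and the XX mean was 2.49-fold the XY mean. Summed over 3 pools these levels rest on 19 UMIs in XX (11.4 to 29.7), 29 in XO (19.4 to 41.6) and 8 in XY oocytes (3.45 to 15.8). The exact permutation test of the differences among the 3 genotypes, over all 1680 assignments of the 9 pools, gave p = 0.00714 on normalized CPM and p = 0.0214 on CPM of gene UMIs without spike-in scaling, where the smallest p it can give is 0.00357. It was run on each of the 6 members and not adjusted over them. Mos did not pass the filter on low counts that precedes the fit across genes. Without the filter, edgeR gave a log2 fold change of -2.44 (SE 0.76, unadjusted p = 0.00146, adjusted p = 0.0520) for XY against XO. It gave -1.25 (SE 0.69, unadjusted p = 0.0714, adjusted p = 0.422) for XX against XO. For XX against XY it gave 1.19 (SE 0.79, unadjusted p = 0.130, adjusted p = 0.874). Only XY against XO was thus below an unadjusted p of 0.05, in a fit that called 2735 of 28051 genes for this contrast. No pairwise difference passed after adjustment. In the batch-regressed log2 matrix Mos was at 1.89, 1.96 and 1.28 in XX, 1.997, 2.13 and 1.67 in XO and 0.26, 0.04 and 1.16 in XY oocytes. There every XY pool was below every other pool, while XX and XO pools overlapped.

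**Figure D1:**
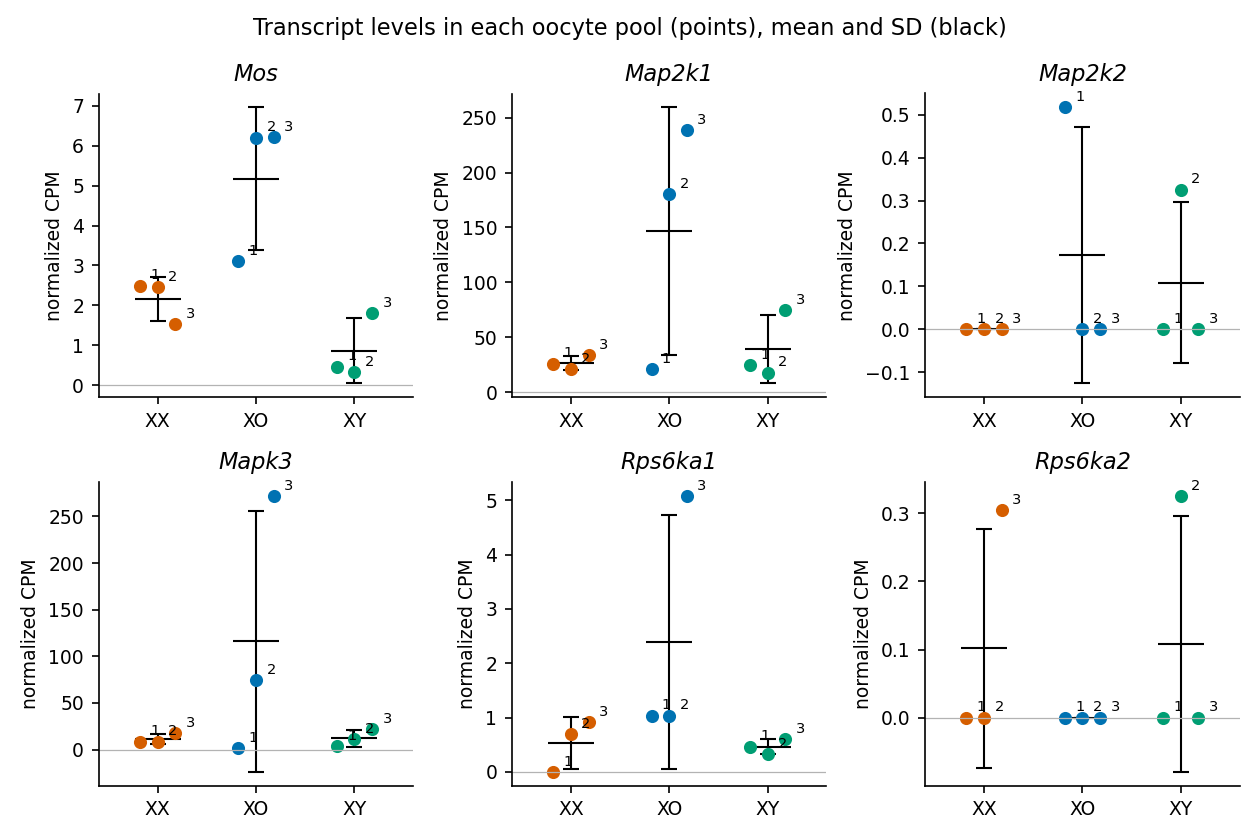
Levels of the 6 members in normalized CPM (vertical axes, each panel with its own scale) by genotype (horizontal axes). Points are single pools labelled with their replicate number, and black bars are the mean and SD of 3 pools. Map2k1 and Mapk3 were highest in XO replicates 2 and 3, at 180.4 and 239 and at 74.4 and 272, whereas the 3 XO pools all lay above the others for Mos.

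Map2k1 (ENSMUSG00000004936.8, chr9:64185770-64253631, minus strand) encodes MEK1, the substrate of Mos. Gm24106, Gm48855 and Uchl4 overlap it on the other strand, and counting used strand. It gave 73, 60 and 110 UMIs in XX, 41, 349 and 423 in XO and 53, 55 and 247 in XY pools. The normalized levels were 26.0, 21.01 and 33.5 in XX oocytes, 21.2, 180.4 and 239 in XO oocytes and 24.6, 17.9 and 74.6 in XY oocytes. XO replicates 2 and 3 stood above all others, and the first XO pool lay within the range of XX oocytes. The third XY pool was the next highest.

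Map2k1 transcript levels were lower in XX than XO oocytes, with a log2 fold change of -2.45 (SE 0.81, edgeR unadjusted p = 0.0131, adjusted p = 0.207), and lower in XY than XO oocytes, with -1.91 (SE 0.79, edgeR unadjusted p = 0.0374, adjusted p = 0.502). The call used here is the unadjusted p below 0.05, the threshold of the study's own analysis, and neither difference passed after Benjamini-Hochberg adjustment over 11411 genes. Between XX and XY oocytes Map2k1 was not called, with -0.54 (SE 0.78, edgeR adjusted p = 1.00). The exact permutation test over the genotypes gave p = 0.2 for Map2k1. These contrasts share their samples and are not independent of each other.

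Map2k2 (ENSMUSG00000035027.18, chr10:81105915-81133975, plus strand), which encodes MEK2, was nearly absent. A single UMI was found in the first XO pool and another in the second XY pool. The other 7 pools had none, and 0 UMIs in the 3 XX pools together allow up to 3 UMIs, or 0.335 normalized CPM. Map2k1 accordingly held 100% of the MEK UMIs in 7 pools, and 97.6% and 98.2% in the remaining pair, and no difference in this share among genotypes was detected (exact permutation p = 1.00). Whether reads of a paralog this close were lost or reassigned in mapping was not tested.

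The promoters of the MEK genes are shown because the genes are paralogs of which 1 was transcribed in every pool and the other was near 0. They are from RefSeq on GRCm38.p6 and run from 250 bases before to 50 bases after a transcription start, 5′ to 3′ in the direction of the gene. Capitals mark GGGCGG on either strand, the GC box bound by SP factors.
Map2k1, chr9:64253556-64253855, minus strand: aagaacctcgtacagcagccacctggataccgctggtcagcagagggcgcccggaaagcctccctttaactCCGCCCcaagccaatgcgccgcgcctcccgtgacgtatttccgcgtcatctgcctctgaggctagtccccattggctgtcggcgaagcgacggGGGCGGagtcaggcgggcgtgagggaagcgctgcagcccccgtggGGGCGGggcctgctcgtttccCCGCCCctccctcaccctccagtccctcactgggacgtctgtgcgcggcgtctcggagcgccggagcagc
Map2k2, chr10:81105665-81105964, plus strand: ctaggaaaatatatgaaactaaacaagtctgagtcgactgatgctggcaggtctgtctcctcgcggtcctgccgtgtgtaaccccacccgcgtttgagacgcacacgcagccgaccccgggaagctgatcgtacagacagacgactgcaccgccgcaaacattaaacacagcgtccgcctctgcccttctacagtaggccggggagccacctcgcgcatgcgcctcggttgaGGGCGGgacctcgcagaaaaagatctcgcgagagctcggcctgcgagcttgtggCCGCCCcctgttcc
The Map2k1 window held 4 GC boxes and 69% G and C, and the Map2k2 window 2 and 60.7%. Of the 32851 promoters of this length, 35.7% held at least 1 GC box. Neither window held the TATA box TATAAA, found in 13.6% of promoters, or TAATTG, the core of the site bound by the oocyte factor NOBOX, found in 8.0%. CANNTG, the E-box read by FIGLA and other factors, occurred at 2 places in the Map2k1 window and at 0 in the Map2k2 window, against 72.3% of promoters with at least 1. Each motif was sought on both strands, and a match is a description of the letters only. Of the 6 members, 4 had a promoter in the RefSeq table. The window at the most upstream Rps6ka1 start held 3 GC boxes and that of Rps6ka2 held 2.

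Mapk3 (ENSMUSG00000063065.13, chr7:126759601-126765819, plus strand) encodes ERK1. XX pools had 24, 24 and 57 UMIs, XO pools 3, 144 and 482 and XY pools 7, 35 and 72. The corresponding normalized levels were 8.55, 8.403 and 17.4 in XX, 1.55, 74.4 and 272 in XO, and 3.25, 11.4 and 21.7 in XY oocytes. XO oocytes therefore held both the lowest pool of all 9 and the highest, 175-fold apart, and their range enclosed those of XX and XY oocytes.

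Mapk3 was lower in XX than XO oocytes by the same call, with a log2 fold change of -3.33 (SE 1.24, edgeR unadjusted p = 0.0238, adjusted p = 0.230), and lower in XY than XO oocytes, with -3.23 (SE 1.24, edgeR unadjusted p = 0.0266, adjusted p = 0.492). It was not called between XX and XY oocytes (log2 fold change -0.10, SE 1.18, edgeR adjusted p = 1.00). The exact permutation test over genotypes gave p = 0.250. Without the third XO pool Mapk3 was no longer called, with -1.72 for XX against XO and -1.62 for XY against XO. The call was also lost for XX against XO without the first or the second XX pool (-3.16 and -3.15), and for XY against XO without the first or the second XY pool (-2.80 and -3.18). In the batch-regressed log2 matrix the direction turned. Mapk3 was at 4.29, 4.56 and 4.13 in XX, 3.50, 3.43 and 3.73 in XO and 3.89, 4.50 and 3.77 in XY oocytes, so that every XO pool was below every XX and XY pool, and the limma difference of XX from XO was 0.77 (SE 0.22, adjusted p = 0.0152).

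For both contrasts with XO oocytes the 2 members that passed the filter, Map2k1 and Mapk3, were called, and both were lower in the genotype compared with XO. Of all 11411 tested genes, 16.7% were called lower in XX than XO oocytes and 8.2% lower in XY than XO oocytes, and 18% and 9.83% were called in either direction. The median log2 fold change of all tested genes was itself -0.47 for XX against XO and -0.30 for XY against XO, and both members lay further from 0 than these medians. Between XX and XY oocytes 0 of the 2 members were called, by edgeR and also by DESeq2, where 5.81% of all genes were called and 4.45% were called lower in XX. After adjustment no gene was called for XX against XO by edgeR (0% of 11411, beside 18% at the unadjusted threshold), and of all genes 0.0789% passed for XX against XY and 0.0351% for XY against XO.

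The pools that were high in Map2k1 and Mapk3 also differed in their spike-ins. The same mix went into every pool, yet the ratio of the UMIs of ERCC-00002 to those of ERCC-00003, the first listed pair, ranged from 0.165 to 15.7. In XX pools it was 0.436, 0.430 and 3.42, in XO pools 0.165, 10.6 and 15.7 and in XY pools 0.174, 1.10 and 3.89. The 9 pools stood in the same order by this ratio and by their normalized Mapk3 level, in 9 of 9 places. On the leading axis of the shares of the 27 spike-ins with at least 100 UMIs, used below, the first and second XX pools changed places, at -0.334 and -0.317. For Map2k1 the 3 highest pools were likewise those with the 3 highest ratios, and 4 of 9 places matched. For Mos 3 of 9 places matched. Transcripts rich in G and C moved in the same pools. Among 20 bins of rising GC content, the median gene of the 16th bin, which holds Map2k1, was at -0.61 in the first XO pool and 0.55 in the third on the log2 scale, as the deviation from its mean over the pools relative to all tested genes. In the 20th bin, which holds Mapk3, these values were -0.38 and 0.33. Mapk3, with 57.6% G and C in its longest transcript, lay above 97.1% of tested genes in this respect, and Map2k1 with 51.2% above 75.9%. Mos, with 53.5%, was richer in G and C than Map2k1 and lay above 86.4% of tested genes. Whether the shift of GC-rich transcripts between pools also moved the level of Mos was not tested.

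With the leading axis of the spike-in shares as a covariate, an alternative that was added on seeing the data, Map2k1 had log2 fold changes of -1.81 for XX against XO and -1.28 for XY against XO, and Mapk3 of -1.88 and -1.92. All 4 remained called and passed after adjustment (edgeR adjusted p = 0.00035, 0.0116, 0.0052 and 0.0083), in a fit in which 2969 and 1394 genes of all tested passed for these contrasts. With an offset for GC content, also added, the values were -2.04 and -1.57 for Map2k1 and -3.05 and -2.9995 for Mapk3, again called. With the 2 surrogate variables estimated from the data, Map2k1 was at -0.72 and -0.76 and was called in both, whereas Mapk3 was at -0.022 and -0.76 and was called in neither.

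**Figure D2:**
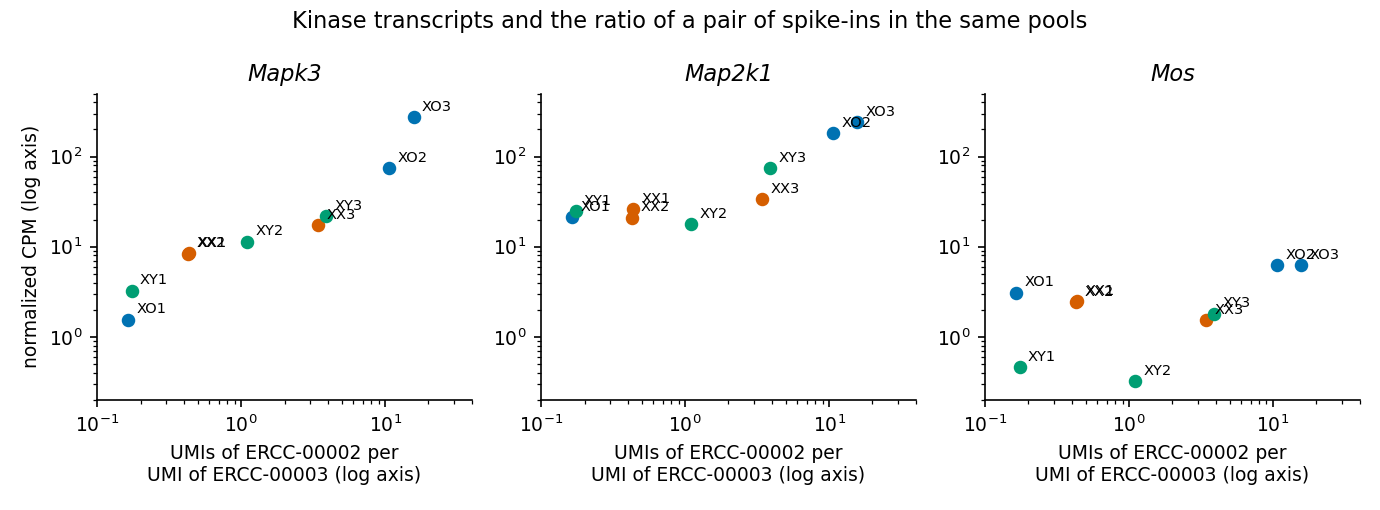
Normalized CPM of Mapk3, Map2k1 and Mos (vertical axes, log scale) against the UMIs of ERCC-00002 per UMI of ERCC-00003 in the same pool (horizontal axes, log scale), each point 1 pool, coloured and named by genotype and replicate. Mapk3 rose from 1.55 in the pool with the lowest ratio to 272 in the pool with the highest, whereas Mos lay at 3.11 in the former and 6.21 in the latter pool and was lowest, at 0.326, in a pool between them.

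**Figure D3:**
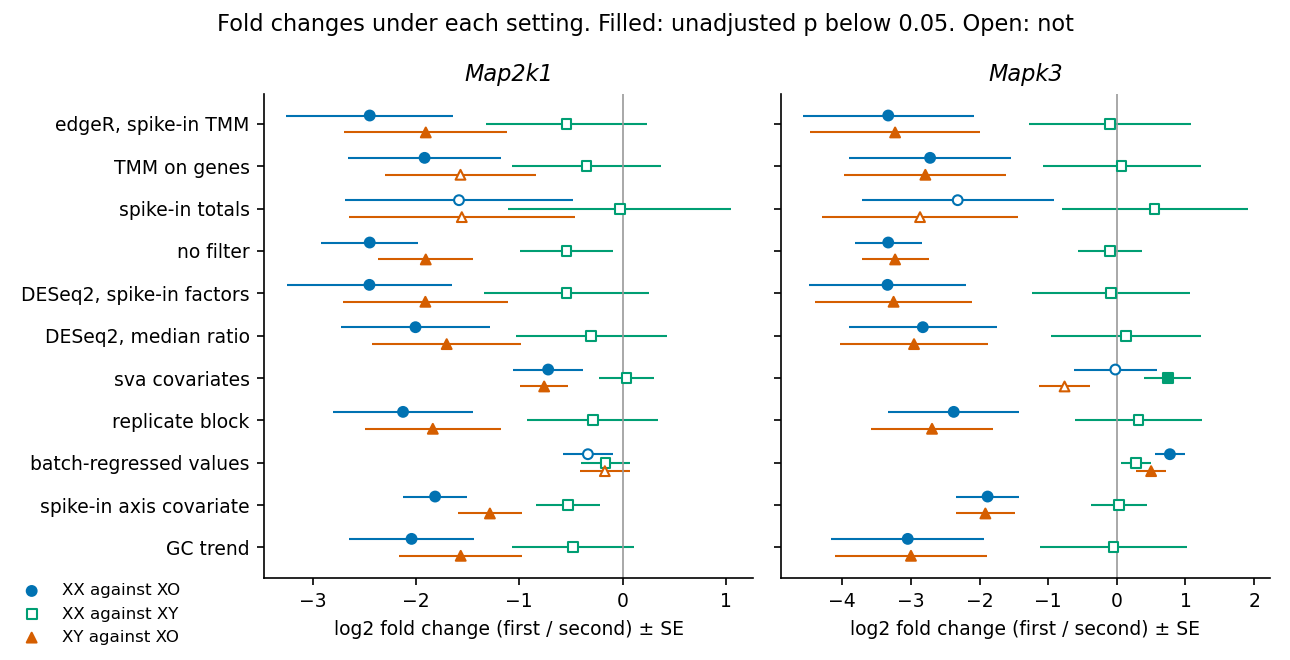
Log2 fold changes of Map2k1 and Mapk3 (horizontal axes, bars are SE) under each setting (rows) for the 3 contrasts, where filled symbols have an unadjusted p below 0.05. Both genes lay below 0 for XX against XO and XY against XO in most settings, and Mapk3 lay above 0 in the batch-regressed values, at 0.77 and 0.50.

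Rps6ka1 (ENSMUSG00000003644.17, chr4:133847290-133887797, minus strand), which encodes RSK1, was near the limit of detection. It gave 0, 2 and 3 UMIs in XX, 2, 2 and 9 in XO and 1, 1 and 2 in XY pools, or 5 (1.62 to 11.7), 13 (6.92 to 22.2) and 4 UMIs (1.09 to 10.2) per genotype. Mean levels were 0.538 ± 0.478 (SD, n = 3) normalized CPM in XX, 2.38 ± 2.34 (SD, n = 3) in XO and 0.465 ± 0.139 (SD, n = 3) in XY oocytes. Every XO pool was above every other pool on this scale, and the exact permutation test gave p = 0.0321, but on CPM of gene UMIs without that scaling it gave p = 0.204. On the same strand, the annotation places Gm12985 and Gm22523 within the gene, and reads shared with them cannot be told apart. Rps6ka2 (ENSMUSG00000023809.9, chr17:7170115-7303313, plus strand), which encodes RSK3, had 1 UMI in the third XX pool, 1 in the second XY pool and 0 elsewhere. Its 0 UMIs in the 3 XO pools allow up to 0.532 normalized CPM. Neither RSK member passed the filter, and no fold change is given for them.

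The RSK genes with more transcripts were outside the members and on the X chromosome. Rps6ka3, which encodes RSK2, gave 53, 58 and 75 UMIs in XX, 11, 22 and 28 in XO and 15, 30 and 53 in XY pools. Its normalized levels were 18.9, 20.3 and 22.8 in XX, 5.70, 11.4 and 15.8 in XO and 6.97, 9.77 and 15.999 in XY oocytes. Every XX pool was above every XO and XY pool, while XO and XY pools overlapped. In the batch-regressed log2 matrix the XX pools were at 4.65, 4.85 and 4.79, again above the XO pools, at 2.95, 2.79 and 2.71, and the XY pools, at 3.33, 3.72 and 3.95. From the counts, the log2 fold change was 0.92 (SE 0.43, edgeR adjusted p = 0.287) for XX against XO, 0.91 (SE 0.42, edgeR adjusted p = 0.884) for XX against XY and 0.01 (SE 0.43, edgeR adjusted p = 0.995) for XY against XO, and none was called, at unadjusted p of 0.0581, 0.0562 and 0.982 by edgeR with spike-in factors. Both contrasts with XX oocytes were called with the replicate block (edgeR unadjusted p = 0.0124 and 0.0111), TMM on genes (0.0049 and 0.0181), DESeq2 median ratios (0.0020 and 0.0072), surrogate variables (0.0029 and 0.0018) and the batch-regressed values. With the leading axis of the spike-in shares as a covariate they also passed after adjustment (edgeR adjusted p = 0.0059 and 0.0295). Neither contrast was called with the GC offset (edgeR unadjusted p = 0.217 and 0.169) or with spike-in totals (0.0620 and 0.105). Nor was either called without the filter (edgeR unadjusted p = 0.0531 and 0.0510). DESeq2 on spike-in factors called XX against XY (unadjusted p = 0.0498) but not XX against XO (0.0519). So did edgeR on only the 6 pools compared, with or without the replicate block. Rps6ka6, which encodes RSK4 and is also X-linked, did not follow this order in normalized CPM. Its levels were 14.9 ± 1.37 (SD, n = 3) normalized CPM in XX, 15.6 ± 1.74 (SD, n = 3) in XO and 12.2 ± 2.91 (SD, n = 3) in XY oocytes, and it was called in no contrast by edgeR with spike-in factors. In CPM of gene UMIs its XX pools, at 16.7 to 18.04, lay above its XO and XY pools, at 9.52 to 15.02. In the batch-regressed log2 matrix they likewise lay above, at 4.14 to 4.16 beside 3.43 to 3.997, and XX against XY was called by limma (log2 difference 0.45, adjusted p = 0.191).

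Within the UMIs of Rps6ka1, Rps6ka2 and Rps6ka3, a measure that does not depend on the scaling between pools, Rps6ka1 held 0, 3.33 and 3.80% in XX, 15.4, 8.33 and 24.3% in XO and 6.25, 3.12 and 3.64% in XY pools. All XO pools were above all XX and XY pools. The means were 2.38 ± 2.07% (SD, n = 3) in XX, 16.01 ± 8.01% (SD, n = 3) in XO and 4.34 ± 1.68% (SD, n = 3) in XY oocytes (exact permutation p = 0.0179), from 5 of 192, 13 of 74 and 4 of 103 UMIs. Leaving out any 1 of the first or second XX pool or of the XY pools brought this p to between 0.05 and 0.0679. The share also depends on the X-linked Rps6ka3, which was lower in every XO pool than in every XX pool. The GC content of Rps6ka1, 57.3%, lay above that of 96.7% of tested genes, and that of Rps6ka3, 40.5%, above 11.3%. Whether the shift of GC-rich transcripts between pools moved the share was not tested. The other ratio within a pool, of Mos to the sum of Map2k1, Map2k2 and Mapk3, was 0.0722, 0.0833 and 0.0299 UMIs per UMI in XX, 0.133, 0.0243 and 0.0122 in XO and 0.0167, 0.0110 and 0.0188 in XY pools. It was lowest and least variable in XY oocytes, at 0.0155 ± 0.0040 (SD, n = 3), but the XO pools spread over the whole range and no difference among genotypes was detected (exact permutation p = 0.479).

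**Figure D4:**
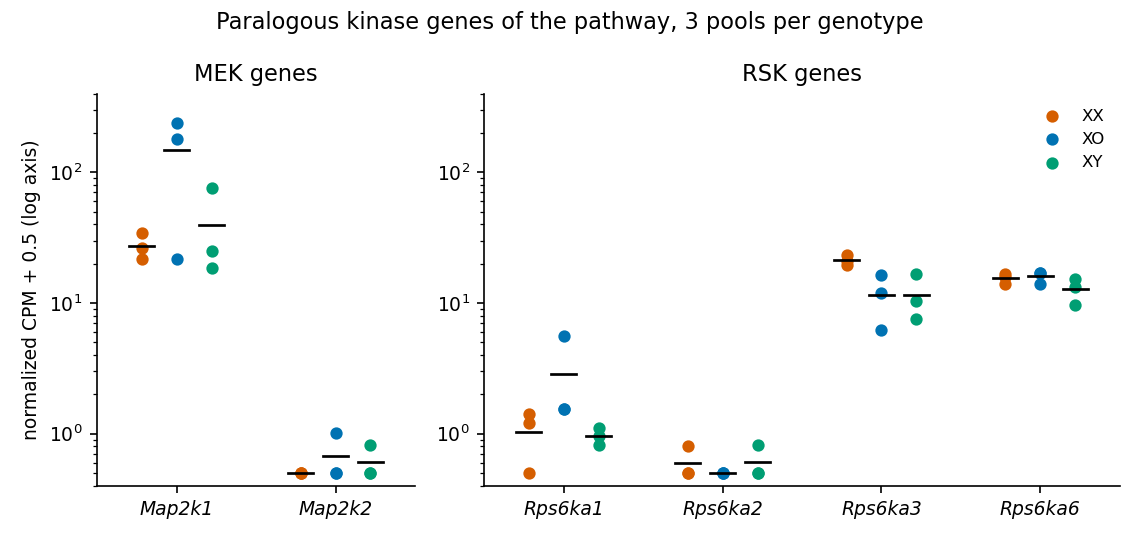
Normalized CPM plus 0.5 (vertical axis, log scale) of the MEK and RSK genes, where points are pools coloured by genotype and black lines are means of 3 pools. Map2k2 and Rps6ka2 lay at the floor in all genotypes, and Rps6ka3 was highest in the 3 XX pools, at 18.9 to 22.8.

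The members ranged widely in level. Averaged over 9 pools and divided by the length of the longest transcript, Map2k1 was at 29.1 and Mapk3 at 25.9 normalized CPM per kb, Mos at 1.89, Rps6ka1 at 0.361, Map2k2 at 0.0390 and Rps6ka2 at 0.0130. On this scale per length the order of the first pair turned in the XO mean, with Map2k1 at 60.3 and Mapk3 at 64.5. Without the division it did not turn, at 146.8 and 116.03 normalized CPM. Mapk3 was then above Map2k1 only in the third XO pool, at 272 beside 239. The last pair, Map2k2 and Rps6ka2, cannot be ordered, with 2 UMIs each. On the same scale per length Rps6ka3 was at 1.96, with 345 UMIs in all beside the 56 of Mos. UMIs mark 5′ ends, so that a long transcript is not counted more often, and without the division by length Rps6ka3 was at 14.2 and Mos at 2.73 normalized CPM.

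The wider pathway was described by 6 lists of 95 genes, of which 92 were analysed and 61 were tested. In XX against XO oocytes 8 of the 61 genes were lower in XX and 0 higher, which is 13.1% beside the 16.7% of all tested genes called lower, and their median log2 fold change was -0.40 beside -0.47 for all genes. In XX against XY oocytes 2 were lower and 0 higher, a share of 3.28% beside 5.81%. In XY against XO oocytes 2 were lower in XY and 1 was higher, a share of 4.92% beside 9.83%. Once the replicate block entered the fit 7 were called, beside 1876 of all 11411 tested genes. None passed after adjustment. The shares were thus near or under the background of all genes.

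The RAS and RAF arm, which activates MEK in somatic cells, had 16 tested genes. In XX against XY oocytes 2 were lower in XX and 0 higher, a share of 12.5% beside 5.81% of all tested genes. In XX against XO oocytes 1 was lower in XX and 0 higher, a share of 6.25% beside 18%. In XY against XO oocytes 1 was lower in XY and 1 higher, a share of 12.5% beside 9.83%. Grb2, an adaptor that recruits SOS to receptors, was lower in XX than XY oocytes, with -1.08 (SE 0.31, edgeR adjusted p = 0.506). Its 3 XX pools lay at 11.0 to 12.6 and its 3 XY pools at 24.8 to 25.6 normalized CPM. Nf1, a brake on RAS, was lower in XX than XY oocytes, at -0.88 (SE 0.28, edgeR adjusted p = 0.594) and was higher in XY than XO oocytes, at 0.81 (SE 0.28, edgeR adjusted p = 0.492). Its XY pools, at 66.1 to 97.8, lay above the XX pools at 35.7 to 54.1 and the XO pools at 39.5 to 50.7. The X-linked Araf was not called by edgeR with spike-in factors, at a log2 fold change of -1.74 (adjusted p = 0.509) for XY against XO. This contrast was called with DESeq2 on spike-in factors, without the filter and with the spike-in axis, and XX against XO was called without the filter (-1.16) and, with the direction turned, in the batch-regressed values (1.04). Araf gave 14, 6 and 15 UMIs in XX, 1, 26 and 22 in XO and 6, 7 and 9 in XY pools, with the low first XO pool and the high XO replicates 2 and 3 seen for Mapk3.

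Of the 11 tested phosphatases and feedback inhibitors of ERK, 3 were lower in XX than XO oocytes, a share of 27.3% beside the 16.7% of all tested genes, and none was called in the other contrasts by edgeR with spike-in factors. Ppp2r1a, the scaffold subunit of phosphatase PP2A, had -2.72 (SE 1.07, edgeR adjusted p = 0.245), with XO pools at 2.07, 27.9 and 50.2 normalized CPM. Spry1, an inhibitor of RAS signalling, had -1.20 (SE 0.45, edgeR adjusted p = 0.228), with XO pools at 4.14, 9.31 and 10.7. In both genes the first XO pool lay within or under the XX range, as for Map2k1.

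The targets of ERK and RSK had 6 tested genes. Fbxo43, placed in this list, encodes EMI2, an inhibitor of the anaphase-promoting complex. It was at 6.41, 7.35 and 8.53 normalized CPM in XX, 9.32, 14.5 and 19.2 in XO and 6.51, 6.84 and 10.6 in XY oocytes. The 3 XO pools lay above the 3 XX pools, with a log2 fold change of -0.94 (SE 0.37, edgeR adjusted p = 0.244) for XX against XO, and -0.83 (SE 0.37, edgeR adjusted p = 0.505) for XY against XO. The X-linked Elk1, a transcription factor phosphorylated by ERK, had 0 to 5 UMIs per pool and was not tested. None of the 4 tested other ERK, RSK and MSK kinases or of the 6 tested ERK scaffolds was called in any contrast by edgeR with spike-in factors at unadjusted p below 0.05, and alternatives that call Rps6ka3 and Rps6ka6 are given with those genes.

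**Figure D5:**
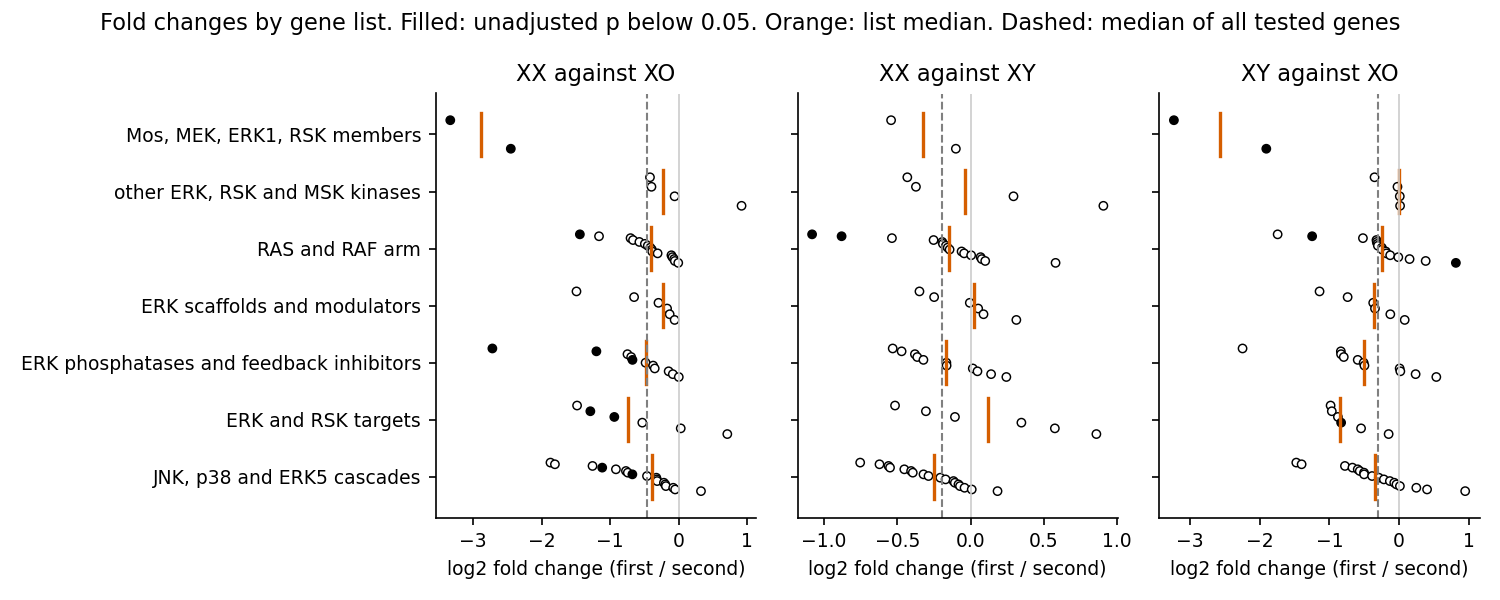
Log2 fold changes of each tested gene (horizontal axes) by list (rows) in the 3 contrasts, where filled points have an unadjusted p below 0.05, orange lines are list medians and the dashed line is the median of all tested genes. Map2k1 and Mapk3, in the top row, had the lowest values of any gene in the lists for XY against XO, except that Ppp2r1a, at -2.25, lay between them.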

How the data were processed

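Oocyte pools were sequenced by a modified Smart-seq3 protocol with 5′ UMIs and ERCC spike-ins. The authors mapped reads with HISAT2 to GRCm38 and counted UMIs at 5′ exons, with strand. The deposited tables held UMI counts, normalized CPM (a signal scaled on spike-ins, recomputed here with edgeR TMM factors of the spike-ins to a relative difference of at most 6.83e-15), and log2 values from which the authors had regressed a batch effect by surrogate variables. limma on the last takes no account of the regressed terms.

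Counts were tested with edgeR 4.0.16 (quasi-likelihood, filterByExpr by genotype, spike-in TMM factors, all 9 pools, 11411 of 28052 genes). A gene was called at unadjusted p below 0.05, and Benjamini-Hochberg adjusted p is given beside it. Single values were compared by two-sided exact permutation over genotypes. Alternatives used DESeq2 1.42.0, sva 3.50.0 and limma 3.58.1. Same-numbered XO and XY pools deviated together (r = 0.81, 0.26 and 0.75 across genes), as read from the values only. For XX with XO pools r was 0.44, -0.41 and 0.65 and for XX with XY pools 0.40, -0.053 and 0.69, so that replicate 2 did not pair.

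The members, lists and tests were chosen with earlier results of these data known. Named genes were the members, in each list and contrast the 2 called genes with the largest change, the X-linked genes, the 3 genes nearest Mos, and the leading markers. A floor of 3 UMIs per genotype was used. 1 row that was neither a mouse gene nor a spike-in was left out. Some genes that the rule names are not reported here.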

Additional observations from a re-analysis of the deposited data

How the results depend on the processing

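The count of called members for XX against XO, 2, was 0 with spike-in totals, 1 with surrogate variables and 1 in the batch-regressed values, and 1 to 3 when a pool was left out. For XX against XY, 0, it was 1 with surrogate variables and 0 to 1 without a pool. For XY against XO, 2, it was 1 with TMM on genes, 0 with spike-in totals, 4 without the filter, 1 with surrogate variables, 1 in the batch-regressed values and 0 to 3 without a pool (0 without the third XO pool). The replicate block changed no call of a member in the fit of all 9 pools, where Map2k1 and Mapk3 remained called against XO.

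For XX against XO the log2 fold change of Map2k1 lost its call with spike-in totals (-1.58) and in the batch-regressed values (-0.34), and spanned -2.96 to -1.91 without a pool, called in each. That of Mapk3 lost it with spike-in totals (-2.32), surrogate variables (-0.022) and a replicate block in the 6 pools compared (-2.22), turned to 0.77 in the batch-regressed values, and spanned -3.90 to -1.72 without a pool, called in 6 of 9. For XY against XO, Map2k1 lost its call with TMM on genes (-1.57), spike-in totals (-1.56), the batch-regressed values (-0.17) and only the 6 pools without a block (-1.91; called with it, -1.66), and spanned -2.79 to -1.36 without a pool, called in 4 of 9 (lost without XX replicate 1, XO replicate 2 or 3, or XY replicate 1 or 2). Mapk3 lost it with spike-in totals (-2.87), surrogate variables (-0.76) and only the 6 pools without a block (-3.24; called with it, -2.61), turned to 0.50 in the batch-regressed values, and spanned -3.95 to -1.62, called in 6 of 9. For XX against XY, uncalled, Map2k1 turned to 0.039 with surrogate variables and spanned -0.89 to 0.34, and Mapk3 turned to 0.069 with TMM on genes, 0.55 with spike-in totals, 0.13 with DESeq2 median ratios, 0.74 with surrogate variables (called), 0.32 with the replicate block, 0.27 in the batch-regressed values and 0.032 with the spike-in axis, and spanned -0.53 to 0.61. The causes were not tested.

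Wider pathway genes called for XX against XO, 8, were 2 with TMM on genes, 0 with spike-in totals, 17 without the filter, 3 with DESeq2 median ratios, 3 with surrogate variables, 23 in the batch-regressed values (22 of them higher in XX), 21 with the spike-in axis and 1 to 18 without a pool. Of all genes, 1287 of 10867 were called with TMM on genes and 3953 of 28051 without the filter. Of 11411 genes, 341 were called with spike-in totals, 1517 with DESeq2 median ratios and 1873 with surrogate variables. In the batch-regressed values 4944 of 11411 were called, and 4366 with the spike-in axis. For XX against XY, 2, the pathway genes called were 0 with spike-in totals, 4 with DESeq2 on spike-in factors, 7 with surrogate variables, 4 with the replicate block, 11 in the batch-regressed values, 8 with the spike-in axis and 1 to 7 without a pool. Of all 11411 genes, 287 were called with spike-in totals, 702 with DESeq2 on spike-in factors and 2203 with surrogate variables. With the replicate block 1045 were called, in the batch-regressed values 2599 and with the spike-in axis 2533. For XY against XO, 3, the pathway genes called were 5 with TMM on genes, 0 with spike-in totals, 11 without the filter, 5 with DESeq2 on spike-in factors, 9 with surrogate variables, 7 with the replicate block, 21 in the batch-regressed values, 16 with the spike-in axis and 1 to 20 without a pool (20 without the first XO pool). Of all 11411 genes, 134 were called with spike-in totals, 1339 with DESeq2 on spike-in factors and 2657 with surrogate variables. With the replicate block 1876 were called, in the batch-regressed values 4918 and with the spike-in axis 3184. Without the filter 2735 of 28051 were called. The median of all tested genes for XX against XO moved from -0.47 to -0.03 with TMM on genes, 0.41 with spike-in totals and 0.28 in the batch-regressed values.

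The difference of XX from XO in the Map2k1 share, 0.794 percentage points, turned to -0.245 in the batch-regressed values and spanned 0 to 1.19 without a pool. That of the Rps6ka1 share, -13.6, spanned -17.5 to -9.48. That of the ratio of Mos to Map2k1, Map2k2 and Mapk3, 0.0052, turned to -0.0062 in the batch-regressed values, where the genotypes differed, and spanned -0.0170 to 0.0436. The log2 ratio of the mean Mos levels was run on fewer alternatives: other scalings of the UMIs, no filter, the batch-regressed values and leaving out a pool. Leaving out a pool of the genotype outside a contrast cannot change it. In these alternatives it kept its direction, spanning -1.53 to -0.22 for XX against XO, 0.92 to 2.45 for XX against XY and -3.71 to -1.44 for XY against XO. The value nearest 0 for XX against XO and for XY against XO was that of the batch-regressed matrix. The depth of 56 Mos UMIs in all limits its comparisons.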

Other observations

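The parallel MAP kinase cascades, of JNK, p38 and ERK5, held 28 analysed genes, of which 18 were tested. In XX against XO oocytes 2 of them were lower in XX, a share of 11.1% beside the 16.7% of all tested genes, and 0 were called in the other contrasts by edgeR at unadjusted p below 0.05. Mapk9, which encodes JNK2, was at 5.70, 4.90 and 6.70 normalized CPM in XX, 5.18, 13.4 and 19.2 in XO and 9.30, 6.84 and 9.36 in XY oocytes, with a log2 fold change of -1.11 (SE 0.46, edgeR adjusted p = 0.254) for XX against XO. The first XO pool lay within the XX range. Map2k4, a MAP kinase kinase that activates JNK, was at 59.8, 50.8 and 55.8 in XX and 110.3, 71.9 and 83.5 in XO oocytes, with -0.68 (SE 0.28, edgeR adjusted p = 0.257), and here all 3 XO pools lay above all XX pools.

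The 3 genes whose profile over the 9 pools was nearest to that of Mos, by the root mean square difference of centred log2(normalized CPM + 0.5) among the 7269 tested genes that averaged 10 normalized CPM or more, were Egln1 (0.42), Fbxl13 (0.45) and Stk35 (0.46), beside a median of 1.05 for all 7269. Egln1, a prolyl hydroxylase that senses oxygen, was at 5.34, 7.003 and 6.70 normalized CPM in XX, 7.77, 24.3 and 32.7 in XO and 3.72, 1.63 and 6.34 in XY oocytes. All XO pools of Egln1 and of Fbxl13 lay above their XX and XY pools.

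Among the marker lists, Zp2 led the oocyte markers, Nr5a2 the granulosa cell markers, Cyp11a1 the theca and stroma markers and Cd68 the blood and immune markers. The 6 theca and stroma markers analysed summed to 2.13 to 8.55 normalized CPM in XX, 2.26 to 4.65 in XO and 5.13 to 6.97 in XY oocytes, and the 2 blood and immune markers to at most 1.69 in any pool.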
